A study of Mus musculus with 20 samples.

Results

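The chemoattractant receptor genes described here are Cx3cr1, Ccr1, Ccr2, Ccr7, Ccrl2, Cxcr4, Fpr1, Fpr2 and Cmklr1. These 9 genes, of 21963 rows of counts, were chosen by their role as receptors for chemotactic signals and from their levels in these same libraries, which were already known, so their own values are given as a description, with no p-value, and the calls counted for them support nothing. 8 of the 9 passed the filter on low counts that 11707 genes passed, and Ccr7 did not.

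The libraries are RNA-seq of bone marrow-derived macrophages (BMDMs), which are macrophages grown in culture from mouse marrow. There were 5 groups: WT untreated (4 libraries), WT with Zymosan for 3 h (5), WT with Zymosan and BAPTA-AM (4), Mcu-/- untreated (4) and Mcu-/- with Zymosan for 3 h (3). Zymosan is a yeast cell wall particle that macrophages recognise and engulf, BAPTA-AM is a cell-permeable chelator of Ca2+ that was used at 10 µM, and Mcu encodes the pore of the mitochondrial Ca2+ uniporter. Donor mice were of both sexes and 15 to 25 weeks old. The Mcu-/- cells came from mice with a floxed Mcu and a Cre driven by Cx3cr1, which is itself among the receptors described. Whether that Cre allele replaces a copy of Cx3cr1 is not given in the sources used here, so for Cx3cr1 the loss of Mcu and the Cre allele cannot be told apart in any comparison between genotypes. The design compares zymosan with no treatment, WT zymosan cells with and without BAPTA-AM, and Mcu-/- with WT cells. No untreated cells and no Mcu-/- cells were given BAPTA-AM. An effect of BAPTA-AM on the response to zymosan therefore cannot be told apart from an effect on the level without zymosan.

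Chemoattractant receptors are 7-transmembrane receptors that steer leukocytes along gradients of chemokines, formylated peptides and lipids. Most of them couple to Gi proteins, whose βγ subunits activate phosphoinositide 3-kinase γ and Rac, and GRK kinases, arrestins and RGS proteins end the signal. In myeloid cells, Cx3cr1 binds fractalkine (Cx3cl1) and marks resident and patrolling cells, Ccr2 binds Ccl2 and brings monocytes out of the marrow, and Ccr1 binds Ccl3, Ccl5 and related chemokines. Cxcr4 binds Cxcl12 and retains cells in the marrow, Ccr7 binds Ccl19 and Ccl21 and leads dendritic cells to lymph nodes, and Fpr1 and Fpr2 sense formylated peptides and, for Fpr2, also annexin A1 and serum amyloid A. Cmklr1 is the signalling receptor for chemerin (Rarres2), and Ccrl2 is an atypical receptor that binds chemerin without signalling.

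Cx3cr1 lies on the minus strand of chromosome 9 at chr9:119901616-120069879 (mm10), and its exons overlap an antisense gene, Gm33858, so that without a stated strand setting the reads of the pair cannot be told apart. On the same chromosome lie Ccrl2 (chr9:111054486-111057519), Ccr1 (chr9:123962124-123968692) and Ccr2 (chr9:124101950-124113557). The others are Cxcr4 (chr1:128588199-128592293), Cmklr1 (chr5:113612354-113650426), Ccr7 (chr11:99144196-99155077), and the neighbours Fpr1 (chr17:17876471-17883940) and Fpr2 (chr17:17887824-17893952). Of the 50-base stretches in the Fpr2 transcripts, 31.5% also occur in transcripts of Fpr1, Fpr3 or Gm5966, and Fpr2 shares exon positions with Fpr3. Reads from such stretches may not be assigned to Fpr2 alone, and the effect on its counts was not measured.

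RefSeq promoter windows (GRCm38.p6) matched 8 of the 9 receptors, all except Ccr7. A kappaB consensus, the site of NF-κB family factors, was found in the windows of only Ccr1 and Ccrl2 among these 8, when both strands of the 300 bases around each gene's RefSeq start were searched. For Cx3cr1, Ccr2 and Cmklr1 that start lies inside the gene interval given above, and starts farther upstream were not searched. Across all 32851 RefSeq windows, 8.46% held it. The AP-1 letters TGANTCA occurred in 7.81% of all windows and in none of the receptors'. The 250 bases upstream of the start are shown for Ccr1 and Ccrl2, whose transcripts moved in opposite directions with zymosan, and for Cx3cr1, which held no match to any motif searched in its window, with the kappaB match in capitals.
Ccrl2, chr9:111057519-111057768, minus strand: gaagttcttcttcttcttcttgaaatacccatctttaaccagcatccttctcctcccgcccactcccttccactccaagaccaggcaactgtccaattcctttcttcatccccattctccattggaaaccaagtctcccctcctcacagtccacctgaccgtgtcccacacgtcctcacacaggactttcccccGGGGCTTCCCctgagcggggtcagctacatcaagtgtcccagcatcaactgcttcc
Ccr1, chr9:123968693-123968942, minus strand: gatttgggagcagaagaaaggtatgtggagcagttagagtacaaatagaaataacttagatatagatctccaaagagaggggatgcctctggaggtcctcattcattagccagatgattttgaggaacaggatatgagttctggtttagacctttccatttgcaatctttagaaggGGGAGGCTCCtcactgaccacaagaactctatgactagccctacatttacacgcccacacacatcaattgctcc
Cx3cr1, chr9:120068297-120068546, minus strand: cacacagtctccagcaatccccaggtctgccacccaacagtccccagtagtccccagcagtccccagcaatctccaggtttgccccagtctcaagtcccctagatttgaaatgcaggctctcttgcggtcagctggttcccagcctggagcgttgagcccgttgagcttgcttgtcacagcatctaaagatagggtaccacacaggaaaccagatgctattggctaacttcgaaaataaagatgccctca
The match lies 56 to 47 bases before the start in Ccrl2 and 74 to 65 bases before it in Ccr1. The NFAT core TGGAAA was in 21.4% of all windows and in those of Ccr1, Ccr2, Ccrl2 and Fpr1, and the PU.1 core GAGGAA was in 28.3% of all windows and in those of Ccr1, Fpr2 and Cmklr1. These are matches of letters and do not show that a factor binds.

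Total counts were 14420402 to 23954552 per library. Values are normalized counts, which are read counts scaled to a common library of 20617761 reads. They can lie below or above the reads. For Cx3cr1, 294 reads gave 215 normalized counts in Mcu-/- untreated replicate 2, and 4 reads gave 5.24 in replicate 3 of WT zymosan with BAPTA-AM. Mcu, the targeted gene, ranged from 126 to 197 (WT, 13 libraries) and from 54.2 to 83.4 (Mcu-/-, 7 libraries), and was lower in untreated Mcu-/- cells by edgeR's quasi-likelihood test (log2 fold change −1.14, SE 0.13, adjusted p = 0.000163, or −1.25 without replicate 4 of that group). Macrophage markers such as Adgre1 (at least 2462 CPM) were abundant in every library, T cell and mast cell markers were at or near 0 (Cd3e and Fcer1a among them), and Cd209a of the dendritic cell list was at 0. Mcu-/- untreated replicate 4 stood apart from its group: its pairs differed by a chi-square of 217 to 225 per gene, against 1.60 to 6.53 in the other 28 within-group pairs, and its removal took the biological coefficient of variation of the whole fit from 12.4% to 3.56%. Macrophage and other markers moved with it. Of the 7 macrophage markers, 3 (Lyz2, Itgam and Adgre1) were lower in that library and in the mean of Mcu-/- zymosan cells than in the mean of untreated WT, and 4 (Cd68, Fcgr1, Csf1r and Mertk) were higher in both. Lyz2 was at 2823 CPM in that library, against a mean of 7201 in untreated WT and 3242 in Mcu-/- zymosan cells, whereas Cd68 was at 971 CPM, against 223 and 1158, and Fcgr1 at 518 CPM, against 109 and 573. The means in WT zymosan cells were 8183 CPM for Lyz2, 309 for Cd68 and 212 for Fcgr1. Mcu-/- zymosan cells set against untreated WT thus differ in treatment as well as genotype. The sum of the 7, to which Lyz2 and Adgre1 gave the most, was at 13121 to 13525 CPM in untreated WT, 8358 in that library and 9075 to 9343 in Mcu-/- zymosan cells. The summed fibroblast markers, of which 3 were listed, were 1.41 to 2.40 CPM in untreated WT, 16.1 in that library and 21.9 to 28.8 in Mcu-/- zymosan cells. Only the collagen genes Col1a1 and Col3a1 carried that rise. Pdgfra, the other of the list, was at means of 0.0922 CPM in untreated WT and 0.111 in Mcu-/- zymosan cells, and at 0.0794 in that library. The 2 endothelial markers summed to 2.30 to 3.20, 8.57 and 11.4 to 12.1. In WT zymosan cells the sums were 2.69 to 4.23 for fibroblast and 3.44 to 5.10 for endothelial markers. The 6 neutrophil markers summed to at most 4.96 CPM in any library. The part of these shifts in the results below was not tested. The log2 fold changes between untreated cells, with zymosan in Mcu-/- cells and between the zymosan responses use that library, and those printed for the receptors are given with and without it. The other comparisons use it only through the shared filter, scaling and estimate of spread.

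Zymosan lowered Cx3cr1 in WT cells far more than any other of the 8 described receptors that were fitted. Untreated WT libraries had 395, 407, 399.8 and 367 normalized counts of Cx3cr1, and the zymosan libraries 7.05, 16.0, 9.46, 9.03 and 9.14 (raw counts 6 to 15). The groups did not overlap, and the fitted change was −5.25 on the log2 scale (SE 0.14), a 38.0-fold lower level. The Mcu-/- untreated libraries had 220.3, 215, 199 and 196 normalized counts, below every untreated WT library, with a log2 difference of −0.92 (SE 0.11), or −0.89 (SE 0.08) without replicate 4. Unlike several other receptors, Cx3cr1 in that replicate was close to the other replicates of its group. In Mcu-/- cells with zymosan the libraries, named by their column numbers 3, 4 and 5, had 44.9, 35.0 and 44.1 normalized counts (raw counts 30 to 43), above all WT zymosan libraries and below all untreated ones. The genotype difference under zymosan was therefore of the opposite sign to that in untreated cells, at 2.01 (SE 0.19) on the log2 scale. The fall with zymosan in Mcu-/- cells was −2.33 (SE 0.14), 5.01-fold, and it differed from that in WT cells by 2.92 (SE 0.21) on the log2 scale. Without replicate 4 these values were −2.35 (SE 0.14) and 2.90 (SE 0.24). With BAPTA-AM, WT zymosan cells had 4.40, 9.0, 5.24 and 7.30 normalized counts, which overlapped the libraries without it (log2 difference −0.63, SE 0.25). At raw counts of 4 to 15, a further fall of that size was not resolved. The order of levels was WT untreated, Mcu-/- untreated, Mcu-/- zymosan, WT zymosan and WT zymosan with BAPTA-AM, and only the last pair overlapped. In bulk RNA, fewer cells with a transcript and less transcript per cell cannot be told apart.

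**Figure D1:**
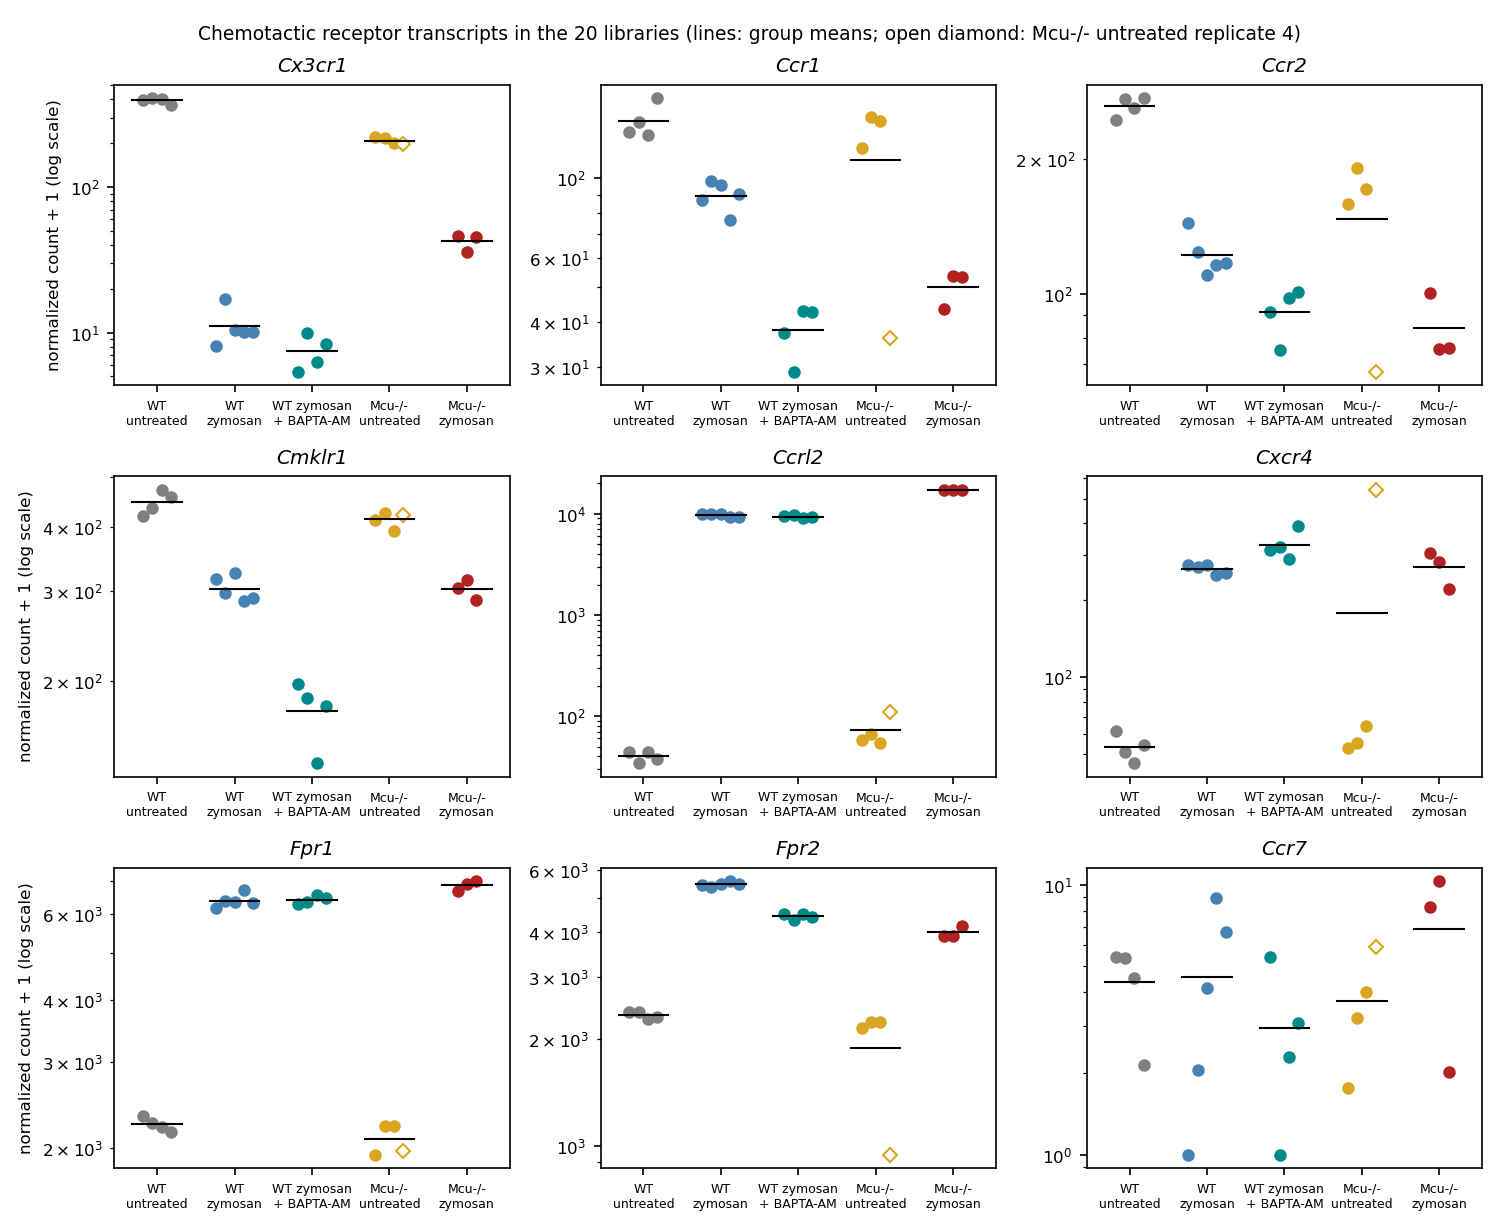
Normalized counts plus 1 (log scale, a separate range in each panel) of the 9 receptors in each of the 20 libraries, by group, with the group mean as a line and Mcu-/- untreated replicate 4 as an open diamond. Cx3cr1 falls from 367 or more in untreated WT to 16.0 or less with zymosan, whereas the 3 Mcu-/- zymosan libraries sit between 35.0 and 44.9.

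Ccr1 and Ccr2, the receptors for inflammatory CC chemokines, were also lower with zymosan. Ccr1 had 133, 142, 131 and 165 normalized counts in untreated WT and 85.7, 97.0, 94.6, 75.6 and 89.2 with zymosan (log2 fold change −0.68, SE 0.26). With BAPTA-AM it had 36.3, 28.1, 41.9 and 41.7, below every WT zymosan library, a difference of −1.26 (SE 0.30) and the largest with BAPTA-AM among the 8 receptors fitted. In Mcu-/- zymosan cells it had 42.5, 52.4 and 52.3, also below every WT zymosan library (−0.85, SE 0.31). Among the untreated Mcu-/- libraries, replicates 1 to 3 had 120.4, 147 and 143 and overlapped WT, but replicate 4 had 35.2. The untreated genotype difference was −0.35 (SE 0.26) with that replicate and −0.05 (SE 0.11) without it.

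Ccr2 had 243, 271, 259 and 273 normalized counts in untreated WT and 143, 124, 109, 115 and 117 with zymosan (−1.11, SE 0.20), without overlap. The BAPTA-AM libraries had 90.2, 74.3, 96.9 and 100.1, all below the zymosan libraries, and the log2 difference was −0.43 (SE 0.21). Untreated Mcu-/- libraries had 158, 191, 171 and 66.3, all below untreated WT, with a difference of −0.83 (SE 0.20), or −0.59 (SE 0.10) without replicate 4. Mcu-/- zymosan libraries had 99.5, 74.6 and 74.9, below those of WT with zymosan (−0.55, SE 0.24) and overlapping those with BAPTA-AM.

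Ccrl2, the atypical chemerin receptor, changed in the opposite direction and on another scale. It had 43.1, 33.2, 43.2 and 37.0 normalized counts in untreated WT, and 9989, 9932, 9910.0, 9365 and 9357 with zymosan, which is 247-fold (7.95 in log2, SE 0.17). BAPTA-AM libraries had 9429, 9666, 9148 and 9209 and overlapped those without it (−0.05, SE 0.11). The Mcu-/- zymosan libraries had 17177, 17331 and 17090.3, all above WT (0.82, SE 0.12). Untreated Mcu-/- libraries had 56.4, 66.0, 53.5 and 109, also all above untreated WT, with a log2 difference of 0.85 (SE 0.17), or 0.58 (SE 0.13) without replicate 4. The fold change with zymosan in Mcu-/- cells was 7.92 (SE 0.16) on the log2 scale and differed from that of WT by −0.03 (SE 0.19). Without replicate 4 these values were 8.19 (SE 0.06) and 0.25 (SE 0.13), so that the sign of the difference turned with that library. Per kb of exon, Ccrl2 went from 0.731 CPM per kb in untreated WT to 181 with zymosan and 321 in Mcu-/- zymosan cells, where it was the highest of the 9 receptors.

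Cmklr1, the signalling chemerin receptor, fell moderately with zymosan, from 419, 435, 471 and 457 normalized counts to 315, 296, 324, 286 and 289 (−0.56, SE 0.08). With BAPTA-AM it had 197, 185, 138 and 178, below every zymosan library (−0.79, SE 0.08). It did not separate the genotypes. Untreated Mcu-/- libraries had 411, 425, 392.2 and 421 (−0.11, SE 0.08, or −0.12, SE 0.07, without replicate 4) and Mcu-/- zymosan libraries 302, 315 and 287, for a difference from WT zymosan of 0.00 on the log2 scale to 2 decimals (SE 0.08). Replicate 4 of the untreated Mcu-/- group lay within the range of its group for this gene. Transcripts of chemerin itself, Rarres2, were at 0 or 1 count in all libraries.

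Fpr1 and Fpr2, the formyl peptide receptors, were the most abundant of the set per kb in untreated WT, at 81.7 and 87.4 CPM per kb. Fpr1 rose from 2319, 2242, 2205 and 2158 normalized counts to 6167, 6365, 6354, 6723 and 6315 with zymosan (1.52, SE 0.05). It had 6296, 6334, 6562 and 6461 with BAPTA-AM, overlapping the libraries without it (0.01, SE 0.04), and 6676, 6909.8 and 6996 in Mcu-/- zymosan cells (0.10, SE 0.05). Untreated Mcu-/- libraries had 1936, 2213, 2216 and 1973 and overlapped WT. The response to zymosan in Mcu-/- cells exceeded that in WT by 0.20 (SE 0.07) on the log2 scale, or by 0.18 (SE 0.05) without replicate 4.

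Fpr2 rose with zymosan from 2379, 2389, 2273 and 2305 normalized counts to 5457, 5386, 5474, 5582 and 5489 (1.23, SE 0.16). Unlike Fpr1, it was lower with BAPTA-AM, at 4515, 4334, 4507 and 4423 without overlap (−0.30, SE 0.16, or SE 0.03 without Mcu-/- untreated replicate 4). Mcu-/- zymosan libraries were lower still, at 3916, 3915 and 4176 (−0.45, SE 0.17). Untreated Mcu-/- replicates 1 to 3 had 2146, 2239 and 2228, just below the lowest untreated WT library, and replicate 4 had 942. The untreated genotype difference was −0.31 (SE 0.17) with replicate 4 and −0.08 (SE 0.03) without it.

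Cxcr4 rose with zymosan in WT, from 60.6, 49.8, 45.0 and 53.2 normalized counts to 274, 268, 273, 249.5 and 255 (2.34, SE 0.57). The BAPTA-AM libraries had 315, 322, 289.5 and 389, all above the zymosan libraries (0.32, SE 0.48, or SE 0.09 without Mcu-/- untreated replicate 4). Mcu-/- zymosan libraries had 305, 282 and 219 and overlapped those of WT. Cxcr4 was the receptor on which replicate 4 weighed most. The untreated Mcu-/- libraries had 51.8, 54.2 and 63.2 in replicates 1 to 3 and 541 in replicate 4, above every zymosan library. The log2 change with zymosan in Mcu-/- cells was 0.61 (SE 0.56) with that library and 2.24 (SE 0.13) without it, and the untreated genotype difference went from 1.75 (SE 0.58) to 0.11 (SE 0.16). Ccr7 had 0 to 8 raw counts per library in all groups, too few to rank the groups.

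**Figure D2:**
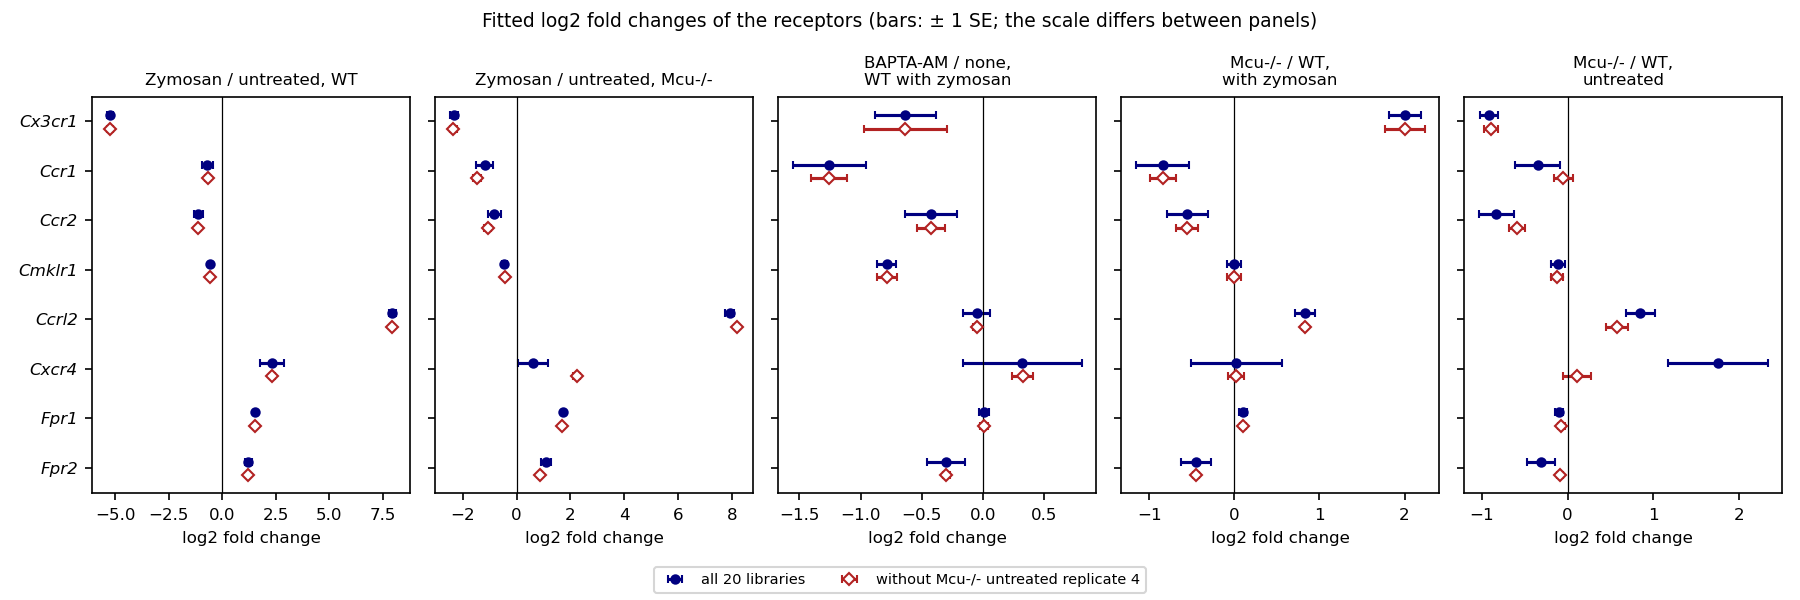
Fitted log2 fold changes with bars of ± 1 SE for the 8 receptors that passed the filter, in 5 comparisons (a separate horizontal scale in each), from all 20 libraries (filled circles) and without Mcu-/- untreated replicate 4 (open diamonds). Cx3cr1 is lower with zymosan in both genotypes (−5.25 and −2.33), and Cxcr4 shows the largest gap between circles and diamonds in untreated cells (1.75 and 0.11).

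Counted by the threshold of an adjusted p under 0.05 over all 11707 genes, 4 of the 8 receptors were higher and 4 lower with zymosan in WT, where 32.4% of all genes were higher, 36.8% lower and 69.1% either. In Mcu-/- cells, 3 were higher and 4 lower, where 34.3% of all genes were higher, 39.4% lower and 73.8% either, and without Mcu-/- untreated replicate 4 there were 4 higher and 4 lower (81.5% of all genes). With BAPTA-AM 0 were higher and 2 lower, Ccr1 and Cmklr1, where 6.43% of all genes were higher, 6.33% lower and 12.8% either, and without that replicate there were 1 higher and 4 lower (31.8%). Between genotypes under zymosan 2 were higher, Cx3cr1 and Ccrl2, and 2 lower, Ccr1 and Fpr2, where 31.8% of all genes were higher, 30.3% lower and 62.1% either, and without it 3 and 3 (70.1%). Among untreated cells 1 was higher, Ccrl2, and 1 lower, Cx3cr1, where 0.128% of all genes were higher, 0.222% lower and 0.350% either, and without it there were 1 higher and 2 lower (3.35%), Ccr2 being the addition. The difference between the zymosan responses of the genotypes passed on the higher side for 2, Cx3cr1 and Fpr1 (15.2% of all genes higher, 35.2% either way), and without replicate 4 for 4, with Ccr1 and Fpr2 added on the lower side (60.3%). Single libraries decided some of these calls. Ccr1 and Fpr2 did not pass between genotypes under zymosan without any 1 of the 3 Mcu-/- zymosan libraries, Ccrl2 did not pass in untreated cells without any 1 of the 4 WT libraries, Ccr1 did not pass with zymosan in WT without WT untreated replicate 4 or WT zymosan replicate 4, and the Fpr1 difference of responses did not pass without WT untreated replicate 1, Mcu-/- untreated replicate 1 or Mcu-/- zymosan library 4 or 5. The Cx3cr1 calls held without each library in turn. Groups did not overlap for 8 receptors with zymosan in WT (69.5% of all genes), 5 in Mcu-/- (61.7%), 5 with BAPTA-AM (24.3%), 5 between genotypes under zymosan (64.0%) and 4 in untreated cells (7.09%). The receptors were chosen with these contrasts known, so nothing is read from these counts.

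**Figure D3:**
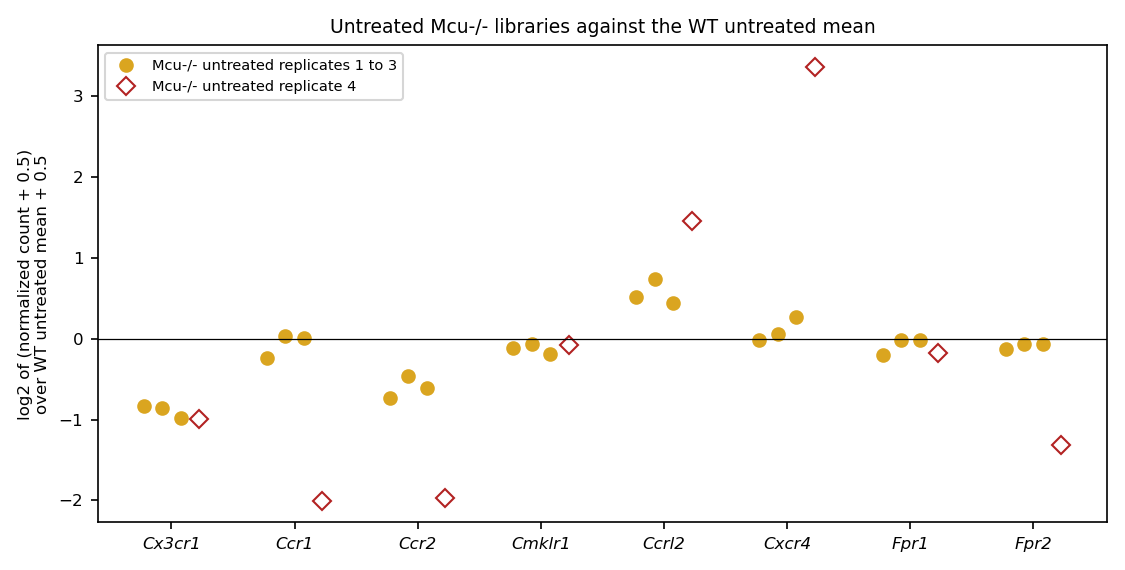
The log2 ratio of each untreated Mcu-/- library to the untreated WT mean (0.5 added to both), for the 8 receptors, with replicates 1 to 3 as circles and replicate 4 as an open diamond. Replicate 4 is at −2.0 for Ccr1, −1.31 for Fpr2 and 3.36 for Cxcr4, away from the other replicates, whereas for Cx3cr1 the 4 libraries lie between −1.0 and −0.83.

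Of the 4 receptors that passed between genotypes under zymosan, Ccr1, Fpr2 and Ccrl2 deviated from the untreated WT mean in the same direction in Mcu-/- untreated replicate 4, and Cx3cr1 in the opposite one. The mean of replicates 1 to 3 lay on the same side for 3 of the 4 too. Over all genes, 86.7% of the 7272 that passed in that comparison deviated the same way in replicate 4, and 52.0% in the mean of replicates 1 to 3. What this library shares with the Mcu-/- zymosan libraries was not tested.

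Other chemoattractant receptors were taken from a list of 36, of which 14 passed the filter and 22 had 0 to 12 counts in every library. This list, and those of ligands and signalling genes below, were chosen with earlier results of these data known. The p-values printed for their genes set each difference against the spread between libraries and are not independent support. With zymosan in WT, 5 were higher and 7 lower, where 69.1% of all genes passed in either direction (median log2 fold change −0.03, against −0.04 over all genes). Gpr183, a receptor for oxysterols, fell from a mean of 179 to 6.44 normalized counts (−4.77, SE 0.18, edgeR adjusted p = 2.29e-14), and S1pr1, a receptor for sphingosine-1-phosphate, from 741 to 45.4 (−4.03, SE 0.24, edgeR adjusted p = 2.31e-11). As with Cx3cr1, the mean levels of this pair in Mcu-/- zymosan cells were between those of WT zymosan and untreated cells. Gpr183 was at 45.6 (2.79 above WT zymosan, SE 0.22, edgeR adjusted p = 1.28e-08) and S1pr1 at 169 (1.89, SE 0.28, edgeR adjusted p = 1.61e-05). The zymosan responses of the genotypes differed for both, by 2.80 for Gpr183 (SE 0.26, edgeR adjusted p = 4.01e-07) and by 1.70 for S1pr1 (SE 0.35, edgeR adjusted p = 0.00129), comparisons that share their libraries with those above. Without Mcu-/- untreated replicate 4 the differences were 2.75 (SE 0.28) and 2.13 (SE 0.14). For Gpr183, 164 normalized counts in untreated Mcu-/- replicate 4 were close to the 168 to 191 of the other replicates, whereas S1pr1 was at 1498 there, against 605 to 645. Ptafr, the platelet-activating factor receptor, rose with zymosan (2.71, SE 0.13, edgeR adjusted p = 4.83e-13) and was lower in Mcu-/- zymosan cells (−0.78, SE 0.13, edgeR adjusted p = 5.42e-05). Xcr1, the receptor for Xcl1 and also a dendritic cell marker, rose from 12.6 to 186 normalized counts (3.85, SE 0.17, edgeR adjusted p = 1.28e-13), while the other 4 dendritic cell markers had group means under 1 CPM.

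Between genotypes under zymosan 8 of the 14 were higher and 1, Ptafr, was lower, where 31.8% of all genes were higher, 30.3% lower and 62.1% either (median log2 difference 0.55, against 0.02 over all genes). The share that passed in either direction was near that of all genes. Ccr3, the eotaxin receptor, had a mean of 261 in WT and 1339 in Mcu-/- cells (2.36, SE 0.34, edgeR adjusted p = 1.70e-05). It was at 99.9 to 121 in untreated Mcu-/- replicates 1 to 3 and at 494 in replicate 4. C5ar2, an atypical C5a receptor, was also higher (1.93, SE 0.56, edgeR adjusted p = 0.00613), with 192 normalized counts in replicate 4 against 25.6 to 41.2. Of these 9 genes, 7 deviated the same way in replicate 4 from the untreated WT mean, and 2 in the mean of replicates 1 to 3. Over all genes that passed, the shares were 86.7% and 52.0%. BAPTA-AM lowered 2 of the 14, among them Xcr1 (−0.55, SE 0.13, edgeR adjusted p = 0.00608), where 12.8% of all genes passed, and without Mcu-/- untreated replicate 4 there were 6 lower and 1 higher (31.8% of all genes).

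**Figure D4:**
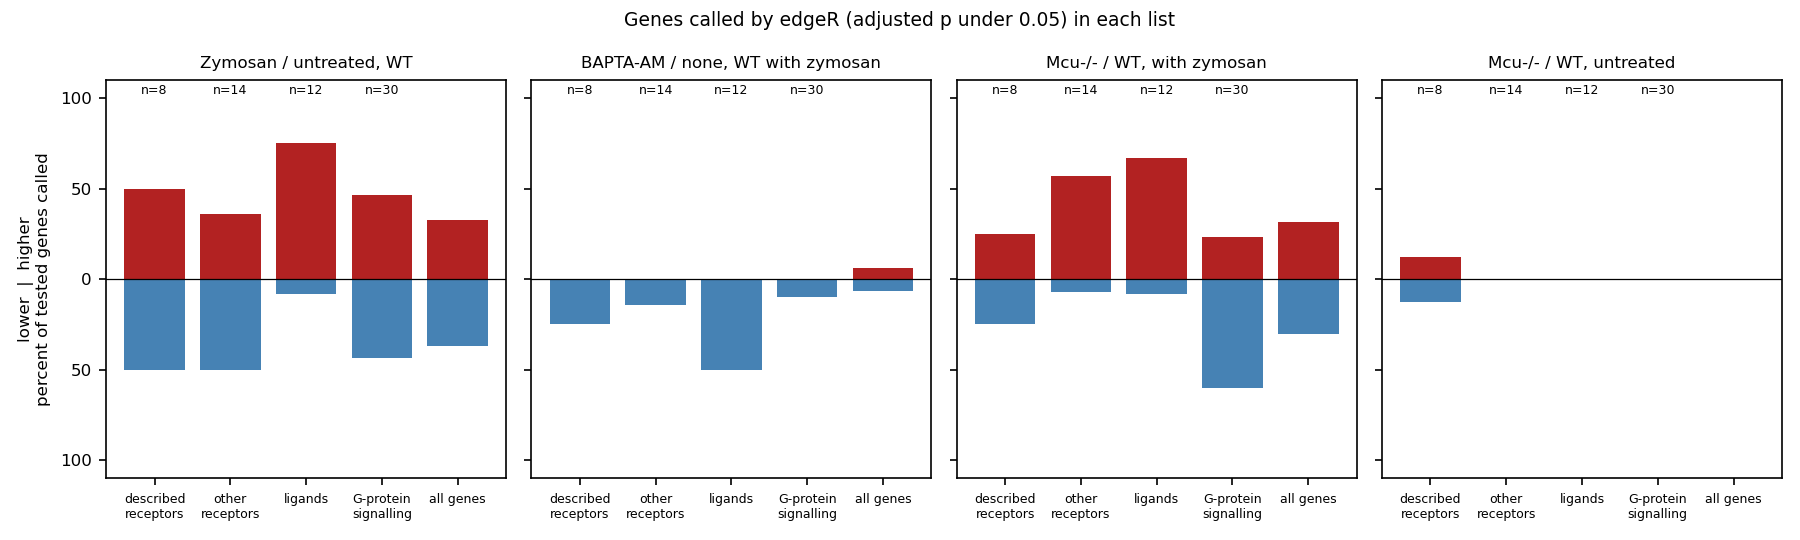
Percent of tested genes called higher (up, red) or lower (down, blue) by edgeR at an adjusted p under 0.05, for the described receptors, the 3 gene lists and all genes tested, in 4 comparisons, with the number tested above each list's bar. Among ligands 9 of 12 are higher with zymosan in WT and 6 of 12 lower with BAPTA-AM. In untreated cells no gene of the 3 lists passes.

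Ligands of the receptors were mostly higher with zymosan. Of 16 listed, 12 passed the filter, and in WT 9 rose and 1 fell, where 32.4% of all genes rose and 36.8% fell (median 2.25, against −0.04 over all genes). Ccl5, a ligand of Ccr1, rose from a mean of 25.8 to 13835 normalized counts (9.05, SE 0.37, edgeR adjusted p = 6.25e-14). Ccl3, another Ccr1 ligand, rose by 5.46 (SE 0.34, edgeR adjusted p = 3.08e-11) and Ccl7, which Ccr1 and Ccr2 bind, by 4.06 (SE 0.16, edgeR adjusted p = 4.47e-14). Ccl2, the main Ccr2 ligand, rose by 2.61 (SE 0.05, edgeR adjusted p = 1.97e-18) while its receptor was lower. Cx3cl1, the ligand of Cx3cr1, had means of 118 and 107 normalized counts (−0.14, SE 0.30, edgeR adjusted p = 0.688). Ccl19 and Ccl21a for Ccr7, Camp for Fpr2 and Rarres2 for Cmklr1 and Ccrl2 had 0 to 3 counts per library and were not tested.

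With BAPTA-AM, 6 of the 12 ligands were lower and 0 higher, namely Ccl12, Saa3, Ccl9, Ccl7, Ccl6 and Ccl2, and without Mcu-/- untreated replicate 4 there were 9 lower and 1 higher. Over all genes 6.33% were lower and 12.8% changed either way, and 31.8% without that replicate. Ccl12, a Ccr2 ligand, had the largest difference (−0.93, SE 0.06, edgeR adjusted p = 1.78e-08), and Saa3, a ligand of Fpr2, followed (−0.90, SE 0.18, edgeR adjusted p = 0.00246). Between genotypes under zymosan 8 were higher and 1, Saa3, lower (31.8% and 30.3% of all genes). Saa3 had a mean of 5418 in WT and 755 in Mcu-/- zymosan cells (−2.84, SE 0.22, edgeR adjusted p = 1.13e-08). Ccl2 was higher in Mcu-/- cells (1.23, SE 0.05, edgeR adjusted p = 3.45e-12), as was Ccl3 (1.42, SE 0.28, edgeR adjusted p = 0.000312). All 9 deviated the same way in Mcu-/- untreated replicate 4 from the untreated WT mean, and 7 in the mean of replicates 1 to 3, where 86.7% and 52.0% of all genes that passed did so. Ccl3 was at 2259 in that library against 630.1 to 699 in the others of its group, and Saa3 at 218 against 518 to 588.

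**Figure D5:**
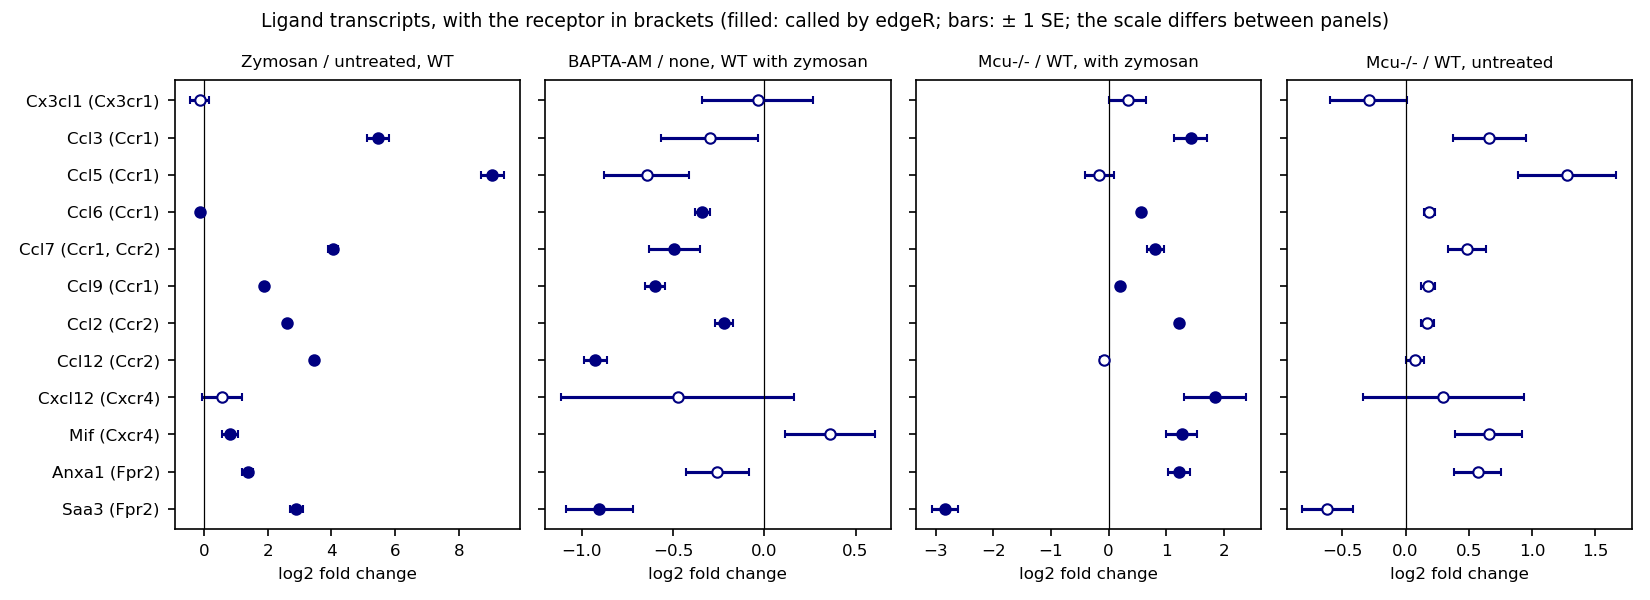
Log2 fold changes with bars of ± 1 SE for the 12 ligand genes tested, with their receptors in brackets, in 4 comparisons (a separate horizontal scale in each), filled where edgeR called the gene. Ccl5 (9.05) and Ccl3 (5.46) lead with zymosan, and Saa3 is the only ligand called lower in Mcu-/- zymosan cells (−2.84).

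Genes of G-protein signalling downstream of the receptors formed a list of 31, of which 30 were tested. With zymosan in WT 14 were higher and 13 lower, where 32.4% of all genes were higher, 36.8% lower and 69.1% either. Rgs2, a regulator that shortens G-protein signals, fell (−1.86, SE 0.06, edgeR adjusted p = 5.24e-16) and Rgs1, of the same family, rose (2.80, SE 0.44, edgeR adjusted p = 1.27e-05). Gnb4, a β subunit, rose (2.79, SE 0.20, edgeR adjusted p = 3.46e-10), and Arrb2, an arrestin, fell (−1.14, SE 0.08, edgeR adjusted p = 1.60e-10). BAPTA-AM lowered 3, namely Grk5, Rgs2 and Pik3r5, and raised 0 (12.8% of all genes either way), and without Mcu-/- untreated replicate 4 it lowered 13 and raised 0 (31.8%).

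Between genotypes under zymosan 7 of the 30 were higher and 18 lower, where 31.8% of all genes were higher and 30.3% lower (median −0.21, against 0.02 over all genes). Lower were the PI3Kγ subunit Pik3r6 (−2.23, SE 0.31, edgeR adjusted p = 9.47e-06), the kinase Grk6 (−1.95, SE 0.31, edgeR adjusted p = 3.73e-05), the arrestin Arrb1 (−1.51, SE 0.23, edgeR adjusted p = 2.07e-05) and Rac2 (−1.44, SE 0.19, edgeR adjusted p = 5.16e-06). Rgs16 had the largest rise, from 8.28 to 119 normalized counts (3.83, SE 0.33, edgeR adjusted p = 3.70e-08), and Rgs2 was higher as well (1.52, SE 0.06, edgeR adjusted p = 1.06e-12). All 25 deviated the same way in untreated Mcu-/- replicate 4, and 15 in the mean of replicates 1 to 3, where 86.7% and 52.0% of all genes that passed did so. Grk6 was at 750.2 normalized counts in that replicate against 3151 to 3287 in the other 3, and Rac2 at 14314 against 33540.4 to 34821, whereas Rgs2 was at 3396 against 2990.4 to 3160.3.

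In untreated cells none of the 14 other receptors, 12 ligands and 30 signalling genes passed between genotypes by edgeR, where 0.350% of all genes did. At an unadjusted p under 0.05 there were 3, 9 and 8 (14.9% of all genes), and DESeq2 called 0, 1 and 0 (0.964% of all genes with an adjusted p). Without Mcu-/- untreated replicate 4 edgeR called 1, 4 and 2 of them (3.35% of all genes).

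Over log2 CPM of the 20 libraries, the genes whose pattern was most like that of Cx3cr1 were Tgfbi (Pearson r = 0.991), Pald1 (0.989), Gucd1 (0.985), Hs6st1 (0.984) and Cep250 (0.984), and the most opposite was Gm2237 (−0.991). The libraries form separate groups of treatment and genotype, so these values describe the group pattern and carry no test. Tgfbi had means of 8505 normalized counts in untreated WT, 1174 with zymosan, 6904 in untreated Mcu-/- and 2725 in Mcu-/- zymosan cells, the same order as Cx3cr1. The nearest patterns to the other receptors were those of Traf1 for Ccrl2 (0.998), Cep85l for Fpr1 (0.997), Slco3a1 for Fpr2 (0.993), Lpxn for Cxcr4 (0.983), Cd163 for Cmklr1 (0.962), Abcc4 for Ccr1 (0.937) and BC037034 for Ccr2 (0.932). Gucd1, Hs6st1 and Cep250 differed from Cx3cr1 in untreated cells, where Cep250, for example, was at 1734 in WT and 1735 in Mcu-/- cells. Pald1 also differed there, in that its untreated libraries overlapped between genotypes (2115 to 2198 in WT, 1122 to 2140 in Mcu-/-).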

How the data were processed

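Total RNA of BMDMs was sequenced in 20 libraries. The authors deposited 1 table of raw counts per gene, made after trimming with cutadapt, alignment to mm10 with STAR and counting with HTSeq, per the labels and the study's methods. Versions, annotation and strand setting are not given in the sources used here. From these counts, edgeR (version 4.0.16, R 4.3.3) was run with filterByExpr, TMM factors and 1 coefficient per group over all 20 libraries, followed by glmQLFit and glmQLFTest. P-values were adjusted by the Benjamini-Hochberg method over 11707 genes, and an adjusted p under 0.05 was a call. Normalized counts are counts divided by library size times TMM factor and multiplied by the mean library size. SE is the log2 fold change divided by the square root of F. For Mcu-/- zymosan the column numbers 3, 4 and 5 do not match label numbers, so those libraries were assigned to the group only. The labels call replicates biological without naming animals, so p-values measure the spread between these libraries.

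The receptors and the gene lists were chosen with earlier results of these data known. Named list genes were up to 4 called genes per direction, comparison and list with the largest log2 fold change and at least 1 CPM, besides all receptors, their ligands, the 5 genes most like Cx3cr1 and the nearest gene for each other receptor. A few list genes are given in further comparisons and were then chosen after their values were seen. The values of 1 listed gene are not reported here. Positions follow GENCODE M21 on mm10. The edgeR step was tested on simulated counts drawn around each gene's mean over all 20 libraries (11478 genes). With changes planted in the WT zymosan group, it recovered 200 of 200 changed genes with 8 false calls. The changed genes were all well expressed, every gene had the same spread and no library was stray. The simulation therefore does not cover genes with few reads or a library such as Mcu-/- untreated replicate 4. DESeq2 (1.42.0), other scalings, filters, groups fitted alone, a replicate block and leaving out each library were tried. Total counts of 14420402 to 23954552 limit genes with few reads, and Cx3cr1 with zymosan in WT rests on 6 to 15 reads.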

Additional observations from a re-analysis of the deposited data

Results flagged for a closer look

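A test for a single stray library (Dixon's) was run on the normalized counts of the receptors and Mcu in every group except Mcu-/- zymosan. In 3 of 40 groups 1 library lay far from the others, near the share of about 1 in 20 that chance gives. The stray libraries were WT zymosan replicate 2 for Cx3cr1, at 16.0 against 7.05 to 9.46, and Mcu-/- untreated replicate 4 for Cxcr4, at 541 against 51.8 to 63.2, and for Fpr2, at 942 against 2146 to 2239. The zymosan response differed between the genotypes for Cx3cr1, by 2.92 on the log2 scale, and for Fpr1, by 0.20. These receptors were chosen with their values known.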

How the results depend on the processing

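Across 48 log2 fold changes of the receptors and 1265 values from alternatives, 1243 moved by less than the spread between replicates, 22 by more and 0 changed from a called value to the opposite sign. The call or lack of call of Cx3cr1 was the same under each alternative in which it was fitted; with at least 10 counts in every library it was not fitted. Scaling by library totals shifted the median of all genes by −0.54 with zymosan in WT and −0.58 in Mcu-/- (−0.04 and −0.06 by TMM), moved the WT calls from 3790 higher and 4303 lower to 1834 and 8018, and those in Mcu-/- from 4017 and 4618 to 1878 and 7999; Cx3cr1 was then at −5.74 in WT and −2.85 in Mcu-/-, far below those medians. With BAPTA-AM the split of 753 higher and 741 lower became 1566 and 525 by library totals and 668 and 1000 by DESeq2.

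Counts of receptors called, in place of 2, were 5 with BAPTA-AM when the groups were fitted alone, 1 in untreated cells both with at least 10 counts and fitted alone, and 1 for the difference of responses by library totals, without a filter, with at least 10 counts and fitted alone. DESeq2 also called Ccr2 in untreated cells. Between genotypes under zymosan, Ccr2 and Fpr1 were called as well by DESeq2 and fitted alone, and Ccr2 by library totals. Other receptors with zymosan in WT were 12 in the fit used above, 13 by DESeq2 and 7 with at least 10 counts. That filter leaves out genes with fewer reads, such as Gpr183, so fewer were fitted. With BAPTA-AM other receptors were 2 in the fit used above, 3 by DESeq2, 4 by library totals and 7 fitted alone. Ligands with BAPTA-AM were 10 fitted alone (6 in the fit used above), and in untreated cells 1 by DESeq2. Signalling genes with BAPTA-AM were 5 by DESeq2 and 13 fitted alone (3 in the fit used above). The calls over all genes moved as well. With BAPTA-AM, 1494 of 11707 became 1668 by DESeq2, 2091 by library totals and 3529 of 10973 fitted alone. With zymosan in WT, 8093 became 8039 by DESeq2 and 7195 of 10039 with at least 10 counts. For the difference, 4122 became 4250 by library totals, 3779 of 16913 without a filter, 3871 of 10039 with at least 10 counts and 3614 of 11683 fitted alone.

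Leaving out each library gave 2 to 5 receptors with BAPTA-AM, 2 to 6 between genotypes under zymosan, 1 to 3 in untreated cells and 1 to 4 for the difference. For other receptors it gave 2 to 7 with BAPTA-AM and 0 to 1 in untreated cells. For ligands it gave 5 to 10 with BAPTA-AM, 0 to 4 in untreated cells and 3 to 9 for the difference, and for signalling genes 2 to 13, 0 to 2 and 15 to 26. Over all genes it gave 1036 to 3712 calls with BAPTA-AM, 6469 to 8182 between genotypes under zymosan, 22 to 391 in untreated cells and 3414 to 7039 for the difference. The upper ends of the ranges with BAPTA-AM and for the difference came without Mcu-/- untreated replicate 4. Ccr1 and Fpr2 lost their calls between genotypes under zymosan without any 1 of the 3 Mcu-/- zymosan libraries, and Ccrl2 lost its call in untreated cells without any 1 of the 4 WT untreated libraries. The 41 genes called in untreated cells (15 higher, 26 lower) became 25 with at least 10 counts (12 and 13), 112 by DESeq2 (57 and 55), 5 fitted alone, 391 without Mcu-/- untreated replicate 4, and 26 and 22 without WT untreated replicates 1 and 2. With BAPTA-AM 1494 became 3529 fitted alone and 3712 without that library. The causes were not tested.

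Same-numbered libraries deviated together only weakly at most (correlations of −0.055 to 0.059). WT untreated libraries 2, 3 and 4 nonetheless had their highest correlation with the WT zymosan library of the same number, and number 1 did not. With BAPTA-AM only number 2 did so, and between untreated genotypes none did. These values do not settle whether the numbers are a pairing. With the replicate number as a block, the calls went to 1 receptor and 1 other receptor with BAPTA-AM, 1 receptor in untreated cells, 879 genes with BAPTA-AM and 22 in untreated cells. Ccr1 also lost its call with zymosan in WT. That fit left out the Mcu-/- zymosan libraries and covered 11498 genes, and the part of the block alone was not tested. A paired fit was not possible for Mcu-/- zymosan, whose columns carry other numbers than the labels. Low depth limits Ccr7 and, after zymosan, Cx3cr1.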
